A study of Mus musculus with 84 samples.

Results

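Heat shock proteins and their J-domain partners fold, refold and disassemble other proteins. The genes described here are the protein-coding genes whose symbols start with Hspa, Hspb, Hspd1, Hspe1, Hsph1, Hsp90 or Dnaj, without the Hspbp and Hspbap genes and without names carrying -ps. The rule used names only and found 72 genes among the 55401 gene IDs counted: 11 of the HSP70 family, 3 HSP110, 3 HSP90, 2 chaperonin, 8 small heat shock protein, 4 DNAJA, 13 DNAJB and 28 DNAJC genes. Their RNA was measured in neuronal nuclei, sorted with an antibody to NeuN, from the frontal lobe of the cortex of 129S6/SvEvTac mice aged 12 weeks. One group had received a vehicle injection, and the other 3 groups were sampled 24 h, 48 h or 7 days after an injection of DOI (2,5-dimethoxy-4-iodoamphetamine), an agonist of serotonin 2A receptors. Each group had 4 mice with RNA, numbered 1 to 4 below, and 2 libraries per mouse, whose counts were summed. The values are therefore levels of RNA in nuclei that passed a NeuN sort, a mixture of excitatory and inhibitory neurons of 1 inbred strain. In bulk samples of this kind, fewer cells of a type and less RNA per cell cannot be told apart.

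HSP70 proteins bind unfolded stretches of other proteins in a cycle driven by ATP. J-domain proteins (the DNAJ families) deliver clients and start ATP hydrolysis, HSP110 proteins and other exchange factors release ADP, and HSP90 takes over clients such as kinases and steroid receptors. Some members are induced through heat shock factor 1 when the cytosol is stressed, others through the unfolded protein response of the endoplasmic reticulum (ER), and many are made all the time. Neurons depend on several J-domain proteins with narrow tasks, among them the uncoating of clathrin-coated vesicles and the folding of synaptic vesicle proteins.

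Promoter sequences are shown for members with the 2 textbook elements of this system, the heat shock element and the ER stress element, since the results below are read by them too. RefSeq windows (build GRCm38.p6) from 250 bases before to 50 bases after the start were found for 58 of the 72 genes. The ER stress element was searched on both strands as CCAAT followed, after any 9 bases, by CCACG, and occurred in 3 of these 58 genes (5.17%), against 0.137% of all 27025 genes with a window. Capitals mark the match in each stretch, at chr2:34772020-34772048 (plus strand) for Hspa5, at chr10:86705633-86705661 and chr10:86705528-86705556 (minus strand, the second match lying in the opposite orientation) for Hsp90b1, and at chr14:118937822-118937850 (plus strand) for Dnajc3.
Hspa5: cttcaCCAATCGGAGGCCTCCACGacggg
Hsp90b1, farther from the start: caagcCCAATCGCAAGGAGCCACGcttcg
Hsp90b1, nearer to the start: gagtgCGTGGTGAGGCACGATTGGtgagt
Dnajc3: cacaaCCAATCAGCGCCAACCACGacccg

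The heat shock element consists of inverted GAA repeats. A run of 3 repeats, TTC then GAA then TTC with any 2 bases between them, searched on both strands, occurred in 4 of the 58 genes (6.9%), namely Hspd1, Hspe1, Dnajb6 and Hsph1, against 0.662% of all genes. The shorter pair GAANNTTC, which the run contains, occurred in 14 of the 58 (24.1%) against 9.04% of all genes. Shown are the matches of Hspd1 (chr1:55088053-55088082, minus strand, in the window of a RefSeq start downstream of the start in the files' annotation, a run that Hspe1's window on the opposite strand also holds), Dnajb6 (chr5:29735846-29735870, plus strand), Hsph1 (chr5:149636287-149636306, minus strand) and the 2 pairs of Dnaja4 (chr9:54699459-54699486 and chr9:54699497-54699524, plus strand), with the matching bases in capitals.
Hspd1: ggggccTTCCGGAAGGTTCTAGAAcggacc
Dnajb6: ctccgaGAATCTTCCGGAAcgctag
Hsph1: tgcagaTTCTGGAAAGTTCt
Dnaja4, first pair: gaacctccgcGAACGTTCtgggcctatg
Dnaja4, second pair: cctcctggcgGAACCTTCcgccggcgcc

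Hspa1a and Hspa1b, the stress-inducible HSP70 genes, lie 12918 bases apart on the minus strand of chromosome 17, and their windows differ at 4 of 300 bases. In the 250 bases before the start they differ at C44T, T47C and T249G, with Hspa1a's base first and positions counted from the 5′ end of the window. The 150 bases before each start are shown (chr17:34972157-34972306 for Hspa1a and chr17:34959239-34959388 for Hspa1b, both minus strand), with the shared GAANNTTC match and the base of T249G in capitals.
Hspa1a: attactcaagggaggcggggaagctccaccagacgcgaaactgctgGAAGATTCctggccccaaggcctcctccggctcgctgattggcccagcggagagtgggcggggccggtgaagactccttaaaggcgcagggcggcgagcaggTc
Hspa1b: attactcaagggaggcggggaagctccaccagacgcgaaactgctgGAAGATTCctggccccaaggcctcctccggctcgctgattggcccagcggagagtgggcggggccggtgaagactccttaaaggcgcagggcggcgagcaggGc
A match of letters is a description of the window and does not show that a factor binds there.

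Totals were 9151680 to 11517452 counts per mouse in the vehicle group and 5834248 to 8090559 in the 24 h and 48 h groups, and 3 counts correspond to 0.254 to 0.502 CPM, the count scaled to a common library total. The share of counts on 18S ribosomal pseudogenes was 0.00694 to 0.0101% in vehicle mice, 0.328 to 1.57% at 24 h and 0.523 to 1.66% at 48 h. The 7-day mice stood apart from each other on this measure, with 0.00834% and 0.00607% in mice 1 and 3 and 0.633% and 0.474% in mice 2 and 4. Mitochondrial counts made up 0.0171 to 0.0701% in vehicle mice, 0.0621 to 0.101% at 24 h and 0.108 to 0.268% at 48 h. The summed level of 8 neuronal markers was 6178 to 6548 CPM in vehicle mice, 4183 to 6419 CPM at 24 h and 3880 to 6254 CPM at 48 h, and Rbfox3, which encodes NeuN, was at 46.3 to 68.1 CPM in vehicle mice. Summed markers of astrocytes ranged over 127 to 182, 94.2 to 210.5 and 76.0 to 228 CPM in vehicle, 24 h and 48 h mice, and those of microglia over 84.4 to 123, 52.3 to 108 and 55.6 to 89.1 CPM. Summed oligodendrocyte markers ranged over 171 to 383, 166 to 247 and 189 to 251 CPM, and endothelial markers over 1.18 to 1.71, 2.79 to 16.8 and 2.39 to 5.93 CPM. Striatal markers summed to 227 to 286 CPM in vehicle mice and reached 466 CPM at 48 h and 1138 CPM at 7 days, while ependymal markers stayed at or below 1.89 CPM with Ccdc153 and Tmem212 at 0. In edgeR at 24 h 1 of 8 neuronal markers rose and 3 fell, 1 of 8 oligodendrocyte markers and 2 of 7 striatal markers tested fell, 1 of 2 endothelial markers tested rose, and 0 of 6 astrocyte and 0 of 6 microglia markers tested passed. In edgeR at 48 h 1 neuronal marker rose and 2 fell, 2 oligodendrocyte markers fell, 1 striatal marker rose, and 0 of the astrocyte, microglia and endothelial markers passed. DESeq2 and voom called 4 and 6 neuronal markers at 24 h and 5 and 6 at 48 h. DESeq2 also called 1 microglia marker at 48 h. At 7 days 0 of the 7 striatal markers passed in edgeR (6 unadjusted), 5 by DESeq2 and 3 by voom. The part of these shares and cell types in the results below was tested only for the 18S and mitochondrial shares, as covariates.

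At 24 h more chaperone genes fell than rose, and the same held at 48 h. Of the 72 genes, 62 passed the filter on low counts. At 24 h 9 of the 62 were higher and 13 lower than in vehicle mice, 35.5% in all, where 24.2% of all 17941 genes tested passed (13.8% higher and 10.4% lower). At 48 h 8 were higher and 18 lower, 41.9%, where 30.1% of all genes passed (16.8% higher and 13.3% lower). All members are protein-coding, and among the 13396 protein-coding genes tested falls also outnumbered rises, with 11.3% higher and 12.7% lower at 24 h and 13.8% and 16.1% at 48 h. The median log2 fold change of the tested members was -0.28 at 24 h and -0.31 at 48 h, against 0.03 and 0.02 for all genes and -0.09 and -0.11 for protein-coding genes. The 4 treated and the 4 vehicle mice did not overlap for 24 members (38.7%) at 24 h and for 26 (41.9%) at 48 h, against 35.7% and 38.1% of all genes. Both the 24 h and the 48 h mice were set against the same 4 vehicle mice, so nothing is read from the overlap of the calls, and each member's values are given side by side below.

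**Figure D1:**
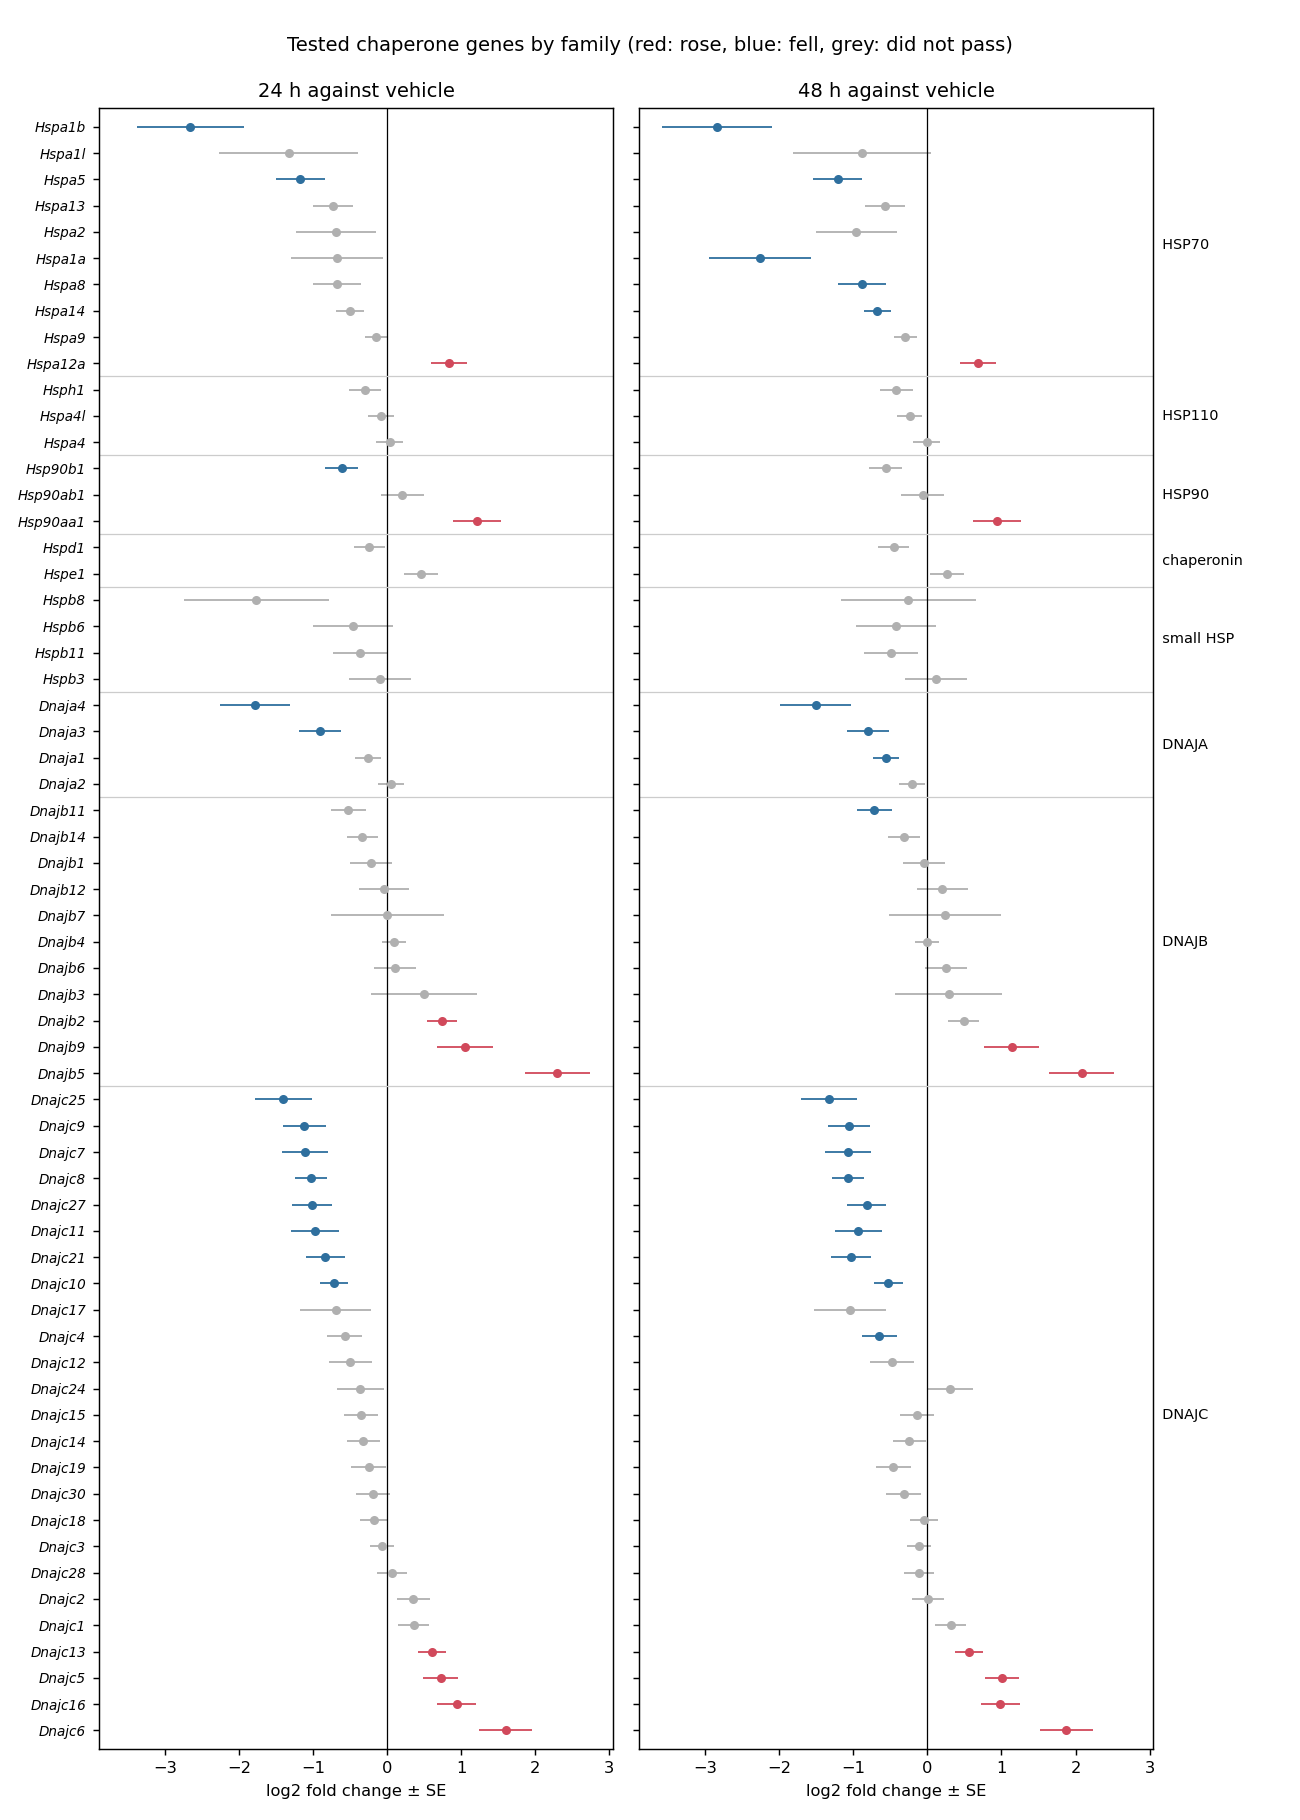
Log2 fold change against vehicle (x axis, points with SE bars) of the tested chaperone genes at 24 h and 48 h, 1 row per gene, ordered by family. Red genes rose, blue genes fell and grey genes did not pass an adjusted p of 0.05; values run from -2.66 (Hspa1b) to 2.29 (Dnajb5) among genes called at 24 h.

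Calls rested on edgeR's quasi-likelihood test, Benjamini-Hochberg adjusted over all genes. With the 18S pseudogene share as a covariate, 0 of the 62 members passed at 24 h (12 unadjusted, meaning a p below 0.05 before adjustment) and 0 at 48 h (11 unadjusted), and with the mitochondrial share 11 passed at 24 h and 0 at 48 h (6 unadjusted). The group accounts for 67.9% of the variation of the 18S share and 56.9% of that of the mitochondrial share. These fits therefore cannot tell the part of a share from that of treatment. Leaving out 1 mouse at a time gave 12 to 19 calls at 24 h and 11 to 20 at 48 h, with the lowest values without vehicle mouse 1 (12 and 11) and, at 24 h, also without 24 h mouse 4 (12). At 48 h the count was 16 without vehicle mouse 2, and 16, 14 and 17 without 48 h mice 2, 3 and 4. Among other settings, scaling by total counts ended the calls of Hsp90b1 at 24 h (adjusted p = 0.0951) and of Hspa8 (0.0668) and Dnaja3 (0.0573) at 48 h. Fitting without a filter ended those of Dnajb2 at 24 h (0.0787) and Dnajc13 at both times (0.0928 and 0.139). Hspa1b, Dnajb5, Dnajc6, Dnajc8, Dnajc9 and Dnajc25 were the 6 members called at both times in each of the fits without 1 mouse. With the 18S share as a covariate none of them passed at either time, and with voom Hspa1b did not. Their log2 fold changes at 24 h moved unequally with that share. They went from -2.66 to -1.57 (Hspa1b), 2.29 to 1.24 (Dnajb5) and 1.60 to 0.63 (Dnajc6). Those of Dnajc8 went from -1.03 to -0.83, of Dnajc9 from -1.12 to -1.17 and of Dnajc25 from -1.40 to -1.12.

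In vehicle mice, the cytosolic HSP90 gene Hsp90ab1 and the ER HSP70 gene Hspa5 led the level per length. In vehicle mice Hsp90ab1, the constitutive cytosolic HSP90, had the highest level at 409 CPM per kb of exon (range 305 to 587), followed by Hspa5 at 192 (151 to 278) and Hspa8 at 96.5 (66.8 to 151). Hsp90ab1 did not overlap Hspa5, and the lowest Hspa5 value lay just above the highest Hspa8 value. Dnajc8 (81.9), Hsp90b1 (81.8), Hsp90aa1 (74.1) and Dnaja2 (63.5) followed, each overlapping its neighbours in that order. The Hspa8 range held the whole Dnajc8 range (78.1 to 87.1), so the ranks of these genes and the place of Hspa8 ahead of them are not resolved. At the other end, 10 members did not pass the filter: Hspb1, Hspb2, Hspb7, Hspb9, Hspa12b, Dnajb8, Dnajb13, Dnajc5b, Dnajc5g and Dnajc22. They had 1 to 77 counts over all 16 mice and at most 11 counts in a single mouse. Hspb1, which encodes HSP27, is the best known of these, and a response of it was not detectable at this depth.

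The inducible HSP70 gene Hspa1b (chr17:34956436-34959238, minus strand, per the files' GRCm38 annotation) fell the most of the members called, at both times. Its level was 6.89, 3.98, 10.4 and 7.30 CPM in vehicle mice, 1.83, 0.595, 0.761 and 1.30 CPM at 24 h and 1.01, 0.670, 0.889 and 1.33 CPM at 48 h. All 8 of these treated mice lay below all 4 vehicle mice. The log2 fold change was -2.66 ± 0.73 (SE, 6.32-fold lower, adjusted p = 0.0151) at 24 h and -2.85 ± 0.74 (7.19-fold lower, adjusted p = 0.00957) at 48 h; with limma voom the adjusted p was 0.0596 and 0.0599. Its near copy Hspa1a was at 3.78, 1.71, 1.57 and 2.24 CPM in vehicle mice, 0.305, 2.38, 1.65 and 1.42 CPM at 24 h and 0.290, 0.502, 0.148 and 0.931 CPM at 48 h. At 24 h the groups overlapped (-0.69 ± 0.62, adjusted p = 0.435), and at 48 h they did not (-2.27 ± 0.68, adjusted p = 0.0200), on 13 counts in 4 mice against 94 in vehicle mice. That call was lost without vehicle mouse 1 (adjusted p = 0.0713) or 48 h mouse 3 (0.0610). The copies are near-identical, so how reads divide between them is uncertain, and 19.0% of Hspa1a's exon bases are shared with the opposite-strand gene Gm20481.

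Of the constitutive HSP70 genes, Hspa5 was called at both times, and Hspa8 and Hspa14 at 48 h. Hspa5 (chr2:34771970-34777547, plus strand) encodes BiP, the HSP70 of the ER, and was at 1175, 639, 699 and 743 CPM in vehicle mice, 173, 477, 501 and 288 CPM at 24 h, and 399.7, 217, 350.3 and 435 CPM at 48 h. The highest treated mouse stayed below the lowest vehicle mouse at both times. Its log2 fold change was -1.18 ± 0.33 (2.26-fold lower, adjusted p = 0.0173) at 24 h and -1.21 ± 0.33 (2.32-fold lower, adjusted p = 0.0122) at 48 h. The 24 h call was lost without vehicle mouse 1 (adjusted p = 0.0676) or 24 h mouse 4 (0.0569), and the 48 h call without vehicle mouse 1 (0.0502).

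Hspa8, the constitutive cytosolic HSP70 that also uncoats clathrin vesicles, was at 649, 385, 339 and 287 CPM in vehicle mice, 136, 271, 371 and 257 CPM at 24 h and 215, 119, 292 and 272 CPM at 48 h. The groups overlapped at both times, with 48 h mouse 3 just above vehicle mouse 4. Its log2 fold change was -0.68 ± 0.32 (adjusted p = 0.128) at 24 h and -0.89 ± 0.32 (adjusted p = 0.0461) at 48 h, a call lost in 5 of 8 fits without 1 mouse (adjusted p up to 0.198 without vehicle mouse 1). With voom the adjusted p at 24 h was 0.0163. Hspa14, a ribosome-associated HSP70, had a log2 fold change of -0.51 ± 0.19 at 24 h and did not pass in edgeR (adjusted p = 0.0550, but 0.0437 with DESeq2 and 0.0137 with voom). It fell at 48 h by 0.68 on the log2 scale (adjusted p = 0.0131), with all 4 mice below the vehicle range. Hspa9, the mitochondrial HSP70, did not pass in edgeR at either time (-0.16 and -0.30), nor did the ER member Hspa13 (-0.73 and -0.58, adjusted p = 0.0567 and 0.111) or Hspa2 (-0.69 and -0.96, adjusted p = 0.360 and 0.186). Hspa13 did pass at 24 h with DESeq2 (adjusted p = 0.0469) and voom (0.00744), and at 48 h with voom (0.0380).

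One HSP70 gene went the other way. Hspa12a, a divergent family member, was at 53.5, 73.0, 75.5 and 73.4 CPM in vehicle mice, 164, 103, 111 and 113 CPM at 24 h and 75.2, 114, 131 and 122 CPM at 48 h. At 24 h every mouse was above the vehicle group (0.84 ± 0.24, adjusted p = 0.0205), and at 48 h mouse 1 fell inside the vehicle range (0.68 ± 0.24, adjusted p = 0.0414). The 24 h call was lost without vehicle mouse 1 (adjusted p = 0.0721) or 24 h mouse 1 (0.0726), and the 48 h call in 7 of 8 such fits (up to 0.125). With the mitochondrial share as a covariate the 48 h value turned to -0.023. Over the family, 1 of 10 tested genes rose and 2 fell at 24 h, and 1 rose and 5 fell at 48 h. These are 30% and 60%, beside 24.2% and 30.1% of all genes. DESeq2 called 5 and 6 genes of the family, and voom 5 and 5. The summed HSP70 level was 1381 to 2247 CPM in vehicle mice, 692 to 1247 CPM at 24 h and 640 to 1085 CPM at 48 h, without overlap.

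**Figure D2:**
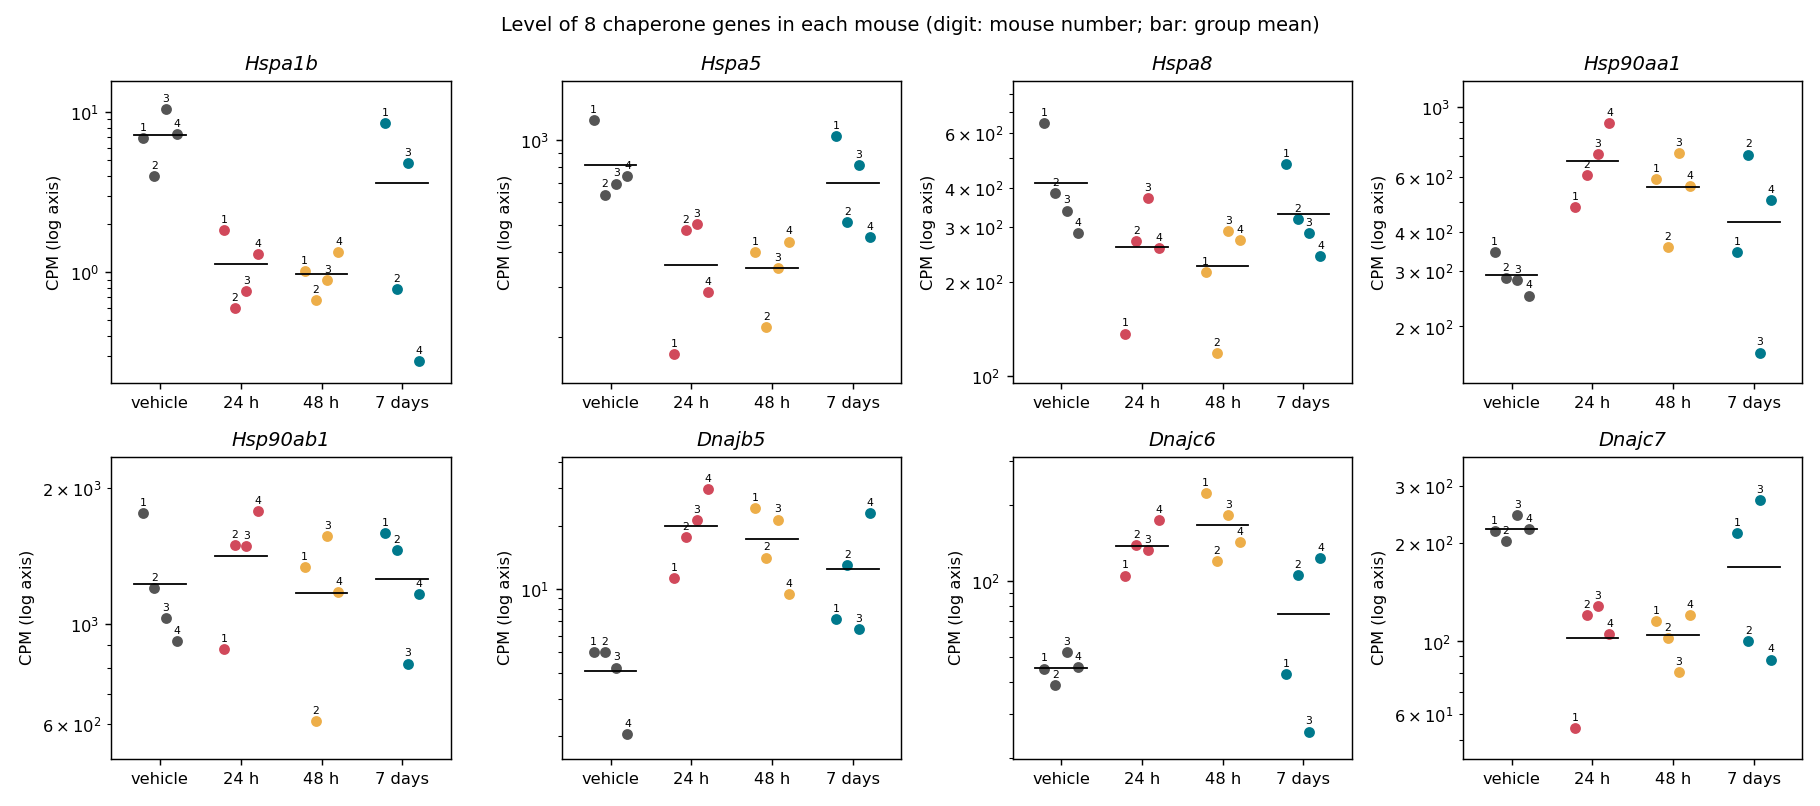
Level of 8 chaperone genes in CPM (y axis, log scale) in each of the 16 mice by group (x axis). Digits are mouse numbers and bars are group means; for Hspa1b the 24 h and 48 h mice lie below all vehicle mice, while for Dnajb5 they lie above them. The 7-day mice span both ranges for Hspa1b and all lie above the vehicle mice for Dnajb5.

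The 3 HSP90 genes took 3 courses. Hsp90aa1 (chr12:110690605-110702728, minus strand), the stress-inducible cytosolic form, was at 346, 286, 281 and 251 CPM in vehicle mice, 481, 609.9, 709 and 893 CPM at 24 h and 591, 358, 716 and 562 CPM at 48 h. Every treated mouse of both groups lay above the vehicle mice, although 48 h mouse 2 did so narrowly. It rose by 1.21 ± 0.32 on the log2 scale at 24 h (2.31-fold, adjusted p = 0.0140) and by 0.94 ± 0.32 at 48 h (1.91-fold, adjusted p = 0.0357). The 24 h call was lost without 24 h mouse 4 (adjusted p = 0.0504) and the 48 h call in 7 of 8 fits without 1 mouse (up to 0.105). With the 18S share as a covariate the 48 h value turned to -0.24.

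Hsp90ab1, the constitutive form, was at 1759.7, 1199.9, 1029 and 916 CPM in vehicle mice and at 880.1, 1498, 1489 and 1782 CPM at 24 h. These ranges overlapped almost wholly, and the log2 fold change was 0.20 ± 0.29 (adjusted p = 0.635) at 24 h and -0.06 ± 0.29 (adjusted p = 0.885) at 48 h. Hsp90b1, the ER form known as GRP94, was at 404, 252, 336 and 326 CPM in vehicle mice and 146, 279.9, 247 and 186 CPM at 24 h. Only 24 h mouse 2 reached into the vehicle range. Hsp90b1 fell by 0.62 ± 0.22 at 24 h (adjusted p = 0.0484), a call lost in 6 of 8 fits without 1 mouse (up to 0.151). At 48 h its log2 fold change was -0.57 ± 0.22 (adjusted p = 0.0590, and 0.00511 with voom).

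Ratios between members within a mouse do not depend on the scaling between libraries. The pairs were picked after their values had been seen and are given without a test. Hsp90aa1 stood at 0.197 to 0.274 of the Hsp90ab1 count in vehicle mice, at 0.407 to 0.546 at 24 h and at 0.441 to 0.588 at 48 h, without overlap. Hspa8 stood at 0.314 to 0.369 of Hsp90ab1 in vehicle mice, at 0.144 to 0.249 at 24 h and at 0.161 to 0.231 at 48 h, again without overlap, although Hspa8 alone overlapped between the groups. Within the ER pair, Hspa5 stood at 2.08 to 2.91 times Hsp90b1 in vehicle mice, at 1.18 to 2.03 at 24 h and at 1.29 to 2.00 at 48 h.

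**Figure D3:**
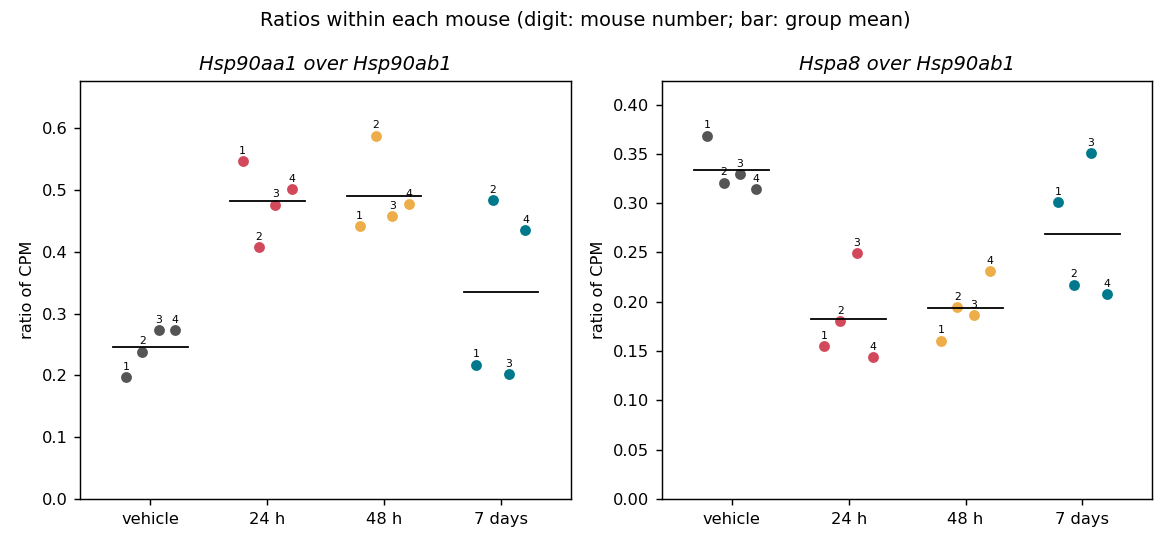
Ratio of the CPM of 2 chaperone genes within each mouse (y axis, from 0) by group (x axis), for Hsp90aa1 over Hsp90ab1 and Hspa8 over Hsp90ab1. Digits are mouse numbers and bars are group means; Hsp90aa1 over Hsp90ab1 is 0.217 and 0.202 in 7-day mice 1 and 3 and 0.484 and 0.436 in mice 2 and 4.

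No gene of the HSP110, mitochondrial chaperonin or small heat shock protein families was called at 24 h or 48 h, where 24.2% and 30.1% of all genes passed. With 3, 2 and 4 tested genes, 0 calls in a family says little about it. Of the 3 HSP110 genes (Hspa4, Hspa4l and Hsph1), which exchange nucleotides on HSP70, 0 were called at either time by edgeR, DESeq2 or voom, 0 had an unadjusted p below 0.05 in edgeR. Log2 fold changes ran from -0.30 to 0.03 at 24 h and from -0.42 to -0.01 at 48 h; their 95% intervals reached from -0.73 to 0.39 and from -0.85 to 0.35. For Hspd1 and Hspe1, the mitochondrial HSP60 and HSP10 whose starts in the files' annotation lie 111 bases apart on opposite strands, the log2 fold changes at 24 h were -0.24 ± 0.21 (adjusted p = 0.420) and 0.46 ± 0.23 (adjusted p = 0.155). Neither passed at 48 h (-0.46 and 0.26), with DESeq2 and voom also calling 0, although the 4 mice lay below all vehicle mice for Hspd1 (adjusted p = 0.110, 1 of the 2 genes with an unadjusted p below 0.05). Of the 4 tested small heat shock proteins 0 were called at either time by edgeR, DESeq2 or voom, and 0 had an unadjusted p below 0.05 in edgeR. Their intervals are wide, from -3.70 to 0.72 at 24 h, so sizeable changes in these sparse genes were not detectable at this depth.

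Among the DNAJA genes, the class most like bacterial DnaJ, 2 of 4 fell at 24 h and 3 at 48 h, where 10.4% and 13.3% of all genes were lower. Dnaja4, whose promoter pairs of GAA repeats are printed above, was at 13.5, 12.1, 12.3 and 10.0 CPM in vehicle mice, 2.13, 3.13, 5.20 and 3.31 CPM at 24 h and 5.22, 4.18, 4.30 and 3.06 CPM at 48 h. Treated and vehicle mice were far apart at both times (-1.79 ± 0.48, adjusted p = 0.0140, and -1.51 ± 0.47, adjusted p = 0.0237), and 44.1% of its exon bases are shared with a gene on the opposite strand. The 48 h call was lost in 4 of 8 fits without 1 mouse (up to 0.0580). Dnaja3, the mitochondrial DNAJA protein, fell by 0.91 at 24 h (adjusted p = 0.0279) and by 0.80 at 48 h (adjusted p = 0.0401). Dnaja1, a main cytosolic partner of Hspa8, had a log2 fold change of -0.26 at 24 h (adjusted p = 0.279) and fell by 0.56 at 48 h (adjusted p = 0.0228). Without 1 mouse, the Dnaja3 calls were lost in 5 and 6 of 8 fits (adjusted p up to 0.0864 and 0.120) and the Dnaja1 call in 4 (up to 0.0609). Dnaja2 did not pass (0.05 and -0.21).

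Of the 11 tested DNAJB genes, 3 were higher and 0 lower at 24 h, and 2 were higher and 1 lower at 48 h. That is 27.3% at each time, near the 24.2% and below the 30.1% of all genes. Dnajb5 (chr4:42949814-42959425, plus strand) had the largest rise among the members called. It was at 5.00, 5.00, 4.22 and 2.04 CPM in vehicle mice, 11.3, 17.6, 21.3 and 29.7 CPM at 24 h and 24.2, 14.1, 21.3 and 9.44 CPM at 48 h. No treated mouse overlapped the vehicle mice, and the log2 fold change was 2.29 ± 0.44 (4.91-fold, adjusted p = 0.00329) at 24 h and 2.08 ± 0.44 (4.23-fold, adjusted p = 0.00344) at 48 h. Dnajb1, the classical heat-inducible HSP40, did not pass (-0.22 and -0.04), nor did Dnajb6, a suppressor of polyglutamine aggregation (0.10 and 0.25).

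Dnajb2, a J-domain protein of neurons that directs clients to the proteasome, was at 20.3, 21.5, 17.0 and 20.1 CPM in vehicle mice and 25.6, 31.8, 33.0 and 41.1 CPM at 24 h. It rose at 24 h (0.74 ± 0.21, adjusted p = 0.0170) and did not pass at 48 h (0.49 ± 0.21, adjusted p = 0.0792); its 24 h call was lost without vehicle mouse 3 (0.0530) or 24 h mouse 4 (0.0688). Dnajb9, an ER partner of BiP, was at 8.31, 7.85, 8.06 and 4.77 CPM in vehicle mice, 23.5, 13.2, 13.3 and 9.94 CPM at 24 h and 21.7, 12.9, 13.8 and 15.3 CPM at 48 h. All treated mice lay above all vehicle mice (1.05 ± 0.38, adjusted p = 0.0498, and 1.14 ± 0.38, adjusted p = 0.0303), but the 24 h call was lost in 8 of 8 fits without 1 mouse (0.0522 to 0.176) and the 48 h call in 5 (up to 0.0882). Dnajb11, another ER partner, had a log2 fold change of -0.53 at 24 h (adjusted p = 0.102, and 0.0325 with voom). It fell by 0.72 at 48 h (adjusted p = 0.0275), a call lost in 4 of those 8 fits (up to 0.145 without vehicle mouse 1).

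Of the 25 tested DNAJC genes, 4 rose and 8 fell at 24 h, and 4 rose and 9 fell at 48 h. These are 48% and 52%, beside 24.2% and 30.1% of all genes. Their summed level was 1980 to 2131 CPM in vehicle mice, 1567 to 1763 CPM at 24 h and 1604 to 1824 CPM at 48 h, without overlap. The DNAJC genes that act on vesicle membranes, Dnajc5, Dnajc6 and Dnajc13, were grouped after their values had been seen. All 3 rose at both times, where 13.8% and 16.8% of all genes were higher, but the choice of genes fixed that count. Dnajc6 (chr4:101496631-101642799, plus strand) encodes auxilin, which recruits Hspa8 to clathrin coats, and was at 45.2, 39.0, 52.5 and 45.7 CPM in vehicle mice, 105, 139.6, 133 and 174 CPM at 24 h and 223, 121, 183 and 143 CPM at 48 h. The lowest treated mouse was far above the highest vehicle mouse, with log2 fold changes of 1.60 ± 0.36 (3.03-fold, adjusted p = 0.00564) and 1.87 ± 0.36 (3.67-fold, adjusted p = 0.00230).

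Dnajc5 encodes cysteine string protein alpha, the J-domain protein of synaptic vesicles, and was at 79.5, 71.6, 74.6 and 66.4 CPM in vehicle mice, 148, 109.7, 119 and 104 CPM at 24 h and 153, 115, 166 and 151 CPM at 48 h. The groups did not overlap (0.72 ± 0.23, adjusted p = 0.0316, and 1.00 ± 0.23, adjusted p = 0.00547), and the 24 h call was lost in 6 of 8 fits without 1 mouse (up to 0.0939). Dnajc13, an endosomal protein, rose by 0.60 ± 0.19 at 24 h (adjusted p = 0.0305) and by 0.56 at 48 h (adjusted p = 0.0363), calls lost in 5 and 7 of 8 such fits. Dnajc16 was the fourth to rise, at 28.2, 35.1, 34.9 and 30.7 CPM in vehicle mice against 25.1, 85.3, 71.1 and 64.7 CPM at 24 h. Its 24 h mouse 1 was below every vehicle mouse while the other 3 were above them (0.93 ± 0.26, adjusted p = 0.0174), and without vehicle mouse 1 or 24 h mouse 2 the adjusted p was 0.0548 or 0.0642. At 48 h it rose by 0.98 without overlap (adjusted p = 0.0111) and was called in 8 of 8 fits without 1 mouse.

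Other DNAJC genes fell, and whether the site of action goes with the direction was not tested. Dnajc8 (chr4:132535550-132553742, plus strand), a protein linked to the spliceosome, was at 214, 222, 201 and 199.6 CPM in vehicle mice, 102, 88.4, 109 and 109.8 CPM at 24 h and 112, 90.4, 97.8 and 96.7 CPM at 48 h. The mice of each group lay close together and the groups were wide apart, with log2 fold changes of -1.03 ± 0.21 (adjusted p = 0.00401) and -1.08 ± 0.21 (adjusted p = 0.00266). Dnajc7, which binds both HSP70 and HSP90, was at 218, 203, 244 and 221 CPM in vehicle mice, 54.4, 121, 129 and 105 CPM at 24 h and 115, 103, 80.6 and 121 CPM at 48 h. It fell without overlap by 1.12 ± 0.31 (adjusted p = 0.0165) and by 1.08 ± 0.31 (adjusted p = 0.0159), and at 48 h the adjusted p was 0.0514 without mouse 3.

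Dnajc9, a co-chaperone of histones H3 and H4, fell by 1.12 ± 0.29 at 24 h (adjusted p = 0.0115) and by 1.06 at 48 h (adjusted p = 0.0118). Dnajc25 was at 19.0, 18.2, 20.9 and 20.2 CPM in vehicle mice, 8.38, 6.25, 7.23 and 7.69 CPM at 24 h and 11.0, 4.85, 6.08 and 9.04 CPM at 48 h. The vehicle mice and the 24 h mice were each within a narrow band, and the fall was -1.40 ± 0.38 (adjusted p = 0.0147) and -1.33 ± 0.38 (adjusted p = 0.0151) on the log2 scale. Dnajc21, a ribosome biogenesis factor, fell by 0.84 at 24 h (adjusted p = 0.0291) and by 1.03 at 48 h (adjusted p = 0.00913), and Dnajc27, a Rab-like protein with a J domain, by 1.02 (adjusted p = 0.0137) and 0.82 (adjusted p = 0.0286). Without 1 mouse, the 24 h call of Dnajc21 was lost in 5 of 8 fits (up to 0.0918), and the calls of Dnajc27 in 1 (0.0508 without 24 h mouse 4) and 4 (up to 0.0838). Among calls at single times, Dnajb2 and Hsp90b1 passed at 24 h alone, and Dnaja1, Dnajb11, Dnajc4, Hspa14, Hspa1a and Hspa8 at 48 h alone. However, 0 members passed when 48 h was tested against 24 h (2 at an unadjusted p below 0.05, and 0 by DESeq2 or voom), where 0% of all genes passed and 1.88% did so unadjusted.

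Read by compartment, in groups drawn up after the values had been seen, the ER members were mixed. The group held 8 genes: Hspa5, Hsp90b1, Hspa13, Dnajb9, Dnajb11, Dnajc1, Dnajc3 and Dnajc10. It is not a full list of ER members, and Dnajc16, which rose at both times, is not in it. Of the 8, Dnajb9 rose and Hspa5, Hsp90b1 and Dnajc10 fell at 24 h, and at 48 h Dnajb9 rose and Hspa5, Dnajb11 and Dnajc10 fell. The share was 50% at each time, beside 24.2% and 30.1% of all genes. Dnajc10, a disulfide reductase, fell by 0.73 ± 0.19 (adjusted p = 0.0129) and by 0.53 (adjusted p = 0.0433), the latter lost in 7 of 8 fits without 1 mouse. Dnajc3, which inhibits the kinase PERK and has the same ER stress element as Hspa5, had log2 fold changes of -0.08 (adjusted p = 0.758) and -0.12 (adjusted p = 0.605). Of the 3 genes with that element, 2 fell at 24 h and 1 at 48 h. The 4 genes with 3 GAA repeats gave 0 calls at either time. Of the 12 tested genes with a GAA pair 0 rose and 3 fell at 24 h, and 0 rose and 5 fell at 48 h (Dnaja4, Dnajc27 and Hspa1b at both). The shares were 25% and 41.7%, beside 24.2% and 30.1% of all genes. Of 8 mitochondrial members, Dnaja3 and Dnajc11, a protein of cristae junction complexes, fell at both times (Dnajc11 by 0.98, adjusted p = 0.0340, and 0.93, adjusted p = 0.0354), and 0 rose, so 25% passed at each time, near or below the share of all genes. The Dnajc11 calls were lost in 6 and 7 of 8 fits without 1 mouse (up to 0.0977 and 0.0880).

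The rest of the folding system was read from lists of 80 other genes, of which 76 were tested. At 24 h 6 rose and 18 fell (31.6%, median log2 fold change -0.41), and at 48 h 7 rose and 25 fell (42.1%, median -0.48), beside 24.2% and 30.1% of all genes. Without 1 mouse the 24 h count ran from 10 to 26, with 10 without vehicle mouse 1 and 14 without vehicle mouse 2 or 24 h mouse 4. The 48 h count ran from 15 to 29, with 18, 20, 15 and 21 without vehicle mice 1 and 2 and 48 h mice 2 and 3. With the 18S share as a covariate the counts were 0 and 0 (19 and 18 unadjusted). Of 5 genes for heat shock factors and their regulators 3 rose and 0 fell at both times (60%, beside 24.2% and 30.1% of all genes): Hsf2 by 1.33 ± 0.26 at 24 h (adjusted p = 0.00329), Hsf5 by 1.56 ± 0.43 (adjusted p = 0.0157) and Hsf1, the factor that induces heat shock genes, by 0.61 ± 0.20 (adjusted p = 0.0329). The calls of Hsf1 were lost in 5 of 8 fits without 1 mouse at each time (up to 0.0982 and 0.110) and without a filter (0.139 and 0.156). The 24 h call of Hsf5 was lost with voom (0.0694) and without vehicle mouse 1 (0.0548) or 2 (0.0503). Of 9 other known targets of that factor 0 passed at 24 h in edgeR (2 unadjusted, 1 by DESeq2 and 2 by voom), where 24.2% of all genes passed. At 48 h 3 of them fell (33.3%, near the 30.1% of all genes), among them Fkbp4 (-1.03, adjusted p = 0.0134) and Ubb (-0.78, adjusted p = 0.0305). The Ubb call was lost in 5 of 8 fits without 1 mouse (up to 0.0952) and with total counts (0.0521). Of 10 nucleotide exchange genes 5 fell at each time (50%, beside 24.2% and 30.1% of all genes), led by Bag1 (-2.06 ± 0.40, adjusted p = 0.00337).

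Among 20 HSP90 co-chaperones 1 rose and 3 fell at 24 h in edgeR (20%, beside the 24.2% of all genes), and 1 rose and 6 fell at 48 h (35%, beside 30.1%). The counts depended on the tool, with 6 and 8 called by DESeq2 and 7 and 12 by voom. The cyclophilin Ppid fell by 1.27 ± 0.24 at 24 h (adjusted p = 0.00308), and St13, which links HSP70 to HSP90, rose by 0.88 ± 0.21 (adjusted p = 0.00889). Of 14 genes of the cytosolic chaperonin and prefoldin, 1 rose and 3 fell at 24 h, and 1 rose and 5 fell at 48 h (28.6% and 42.9%, beside 24.2% and 30.1% of all genes), with the prefoldin subunit Pfdn5 rising by 1.23 ± 0.31 at 24 h (adjusted p = 0.0105). Here DESeq2 called 4 and 6 genes, and voom 8 and 9. Of 15 other ER folding and unfolded protein response genes, 1 rose and 5 fell at 24 h (40%, beside 24.2% of all genes), and 1 rose and 6 fell at 48 h (46.7%, beside 30.1%). Xbp1, a transcription factor of that response, fell by 1.14 ± 0.29 at 24 h (adjusted p = 0.0114) beside the fall of Hspa5. Eif2ak3, which encodes PERK, fell by 0.81 at 24 h (adjusted p = 0.0146, and 0.0529 without vehicle mouse 1) and by 0.61 at 48 h (adjusted p = 0.0413). Atf4, another factor of that response, rose by 0.64 ± 0.17 at 24 h (adjusted p = 0.0135, and 0.0587 without a filter) and by 0.51 at 48 h (adjusted p = 0.0316). The 48 h calls of Eif2ak3 and Atf4 were lost in 6 and 7 of 8 fits without 1 mouse. PERK activity was not measured. Of 10 mitochondrial quality control genes, 0 rose and 3 fell at 24 h (30%, near the 24.2% of all genes), and 1 rose and 3 fell at 48 h (40%, beside 30.1%). Those that fell at 24 h include the protease Htra2 (-1.98 ± 0.68, adjusted p = 0.0407), a call lost in 6 of 8 fits without 1 mouse (0.0648 to 0.115).

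At 7 days 0 of the 62 members passed against vehicle in edgeR (5 at an unadjusted p below 0.05, 1 by DESeq2, 0 by voom), where 0% of all genes passed and 16.8% did so unadjusted, and the groups did not overlap for 2 members, against 5.85% of all genes. The smallest p belonged to Dnajb5, at 7.20, 13.0, 6.42 and 22.9 CPM in the 7-day mice (1.60 ± 0.43, adjusted p = 0.103), the gene that DESeq2 called. Hspa12a (0.72, adjusted p = 0.154) and Dnajc5 came next. Without 7-day mouse 1, 2 members were called (Dnajb5 and Hspa12a), and without mouse 3, 4 were called (these and Dnajc5 and Dnajc6). Against the 24 h mice 0 members passed (10 unadjusted, 0 by DESeq2 and 4 by voom), where 0.00557% of all genes passed and 14.2% did so unadjusted.

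The 7-day group was 2 pairs of unlike mice in these genes, divided as they were in the 18S share. Hspa1b was at 8.55, 0.784, 4.79 and 0.280 CPM in 7-day mice 1 to 4, Dnajc25 at 20.2, 6.05, 20.2 and 6.02 CPM, and Dnajc6 at 42.9, 106, 25.5 and 123 CPM. Mice 1 and 3 lay inside the vehicle range for Hspa1b and Dnajc25, and mice 2 and 4 inside the 24 h range for Dnajc6. Mouse 3 was below the vehicle range for Dnajc6, and mouse 4 below the 24 h range for Hspa1b. Of the 22 members called at 24 h, 20, 1, 20 and 2 were nearer to the vehicle mean than to the 24 h mean in mice 1 to 4. The median log2 change of those members, taken in the direction called at 24 h, was 0.04, 1.11, 0.02 and 1.02 in the 4 mice, beside 1.02 for the 24 h group. Hspa5 at 1028, 509.8, 814 and 451 CPM and Hsp90aa1 at 346, 707, 165 and 507 CPM were divided in the same way. No label sets these mice apart, so the mean of the 7-day group describes neither pair.

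**Figure D4:**
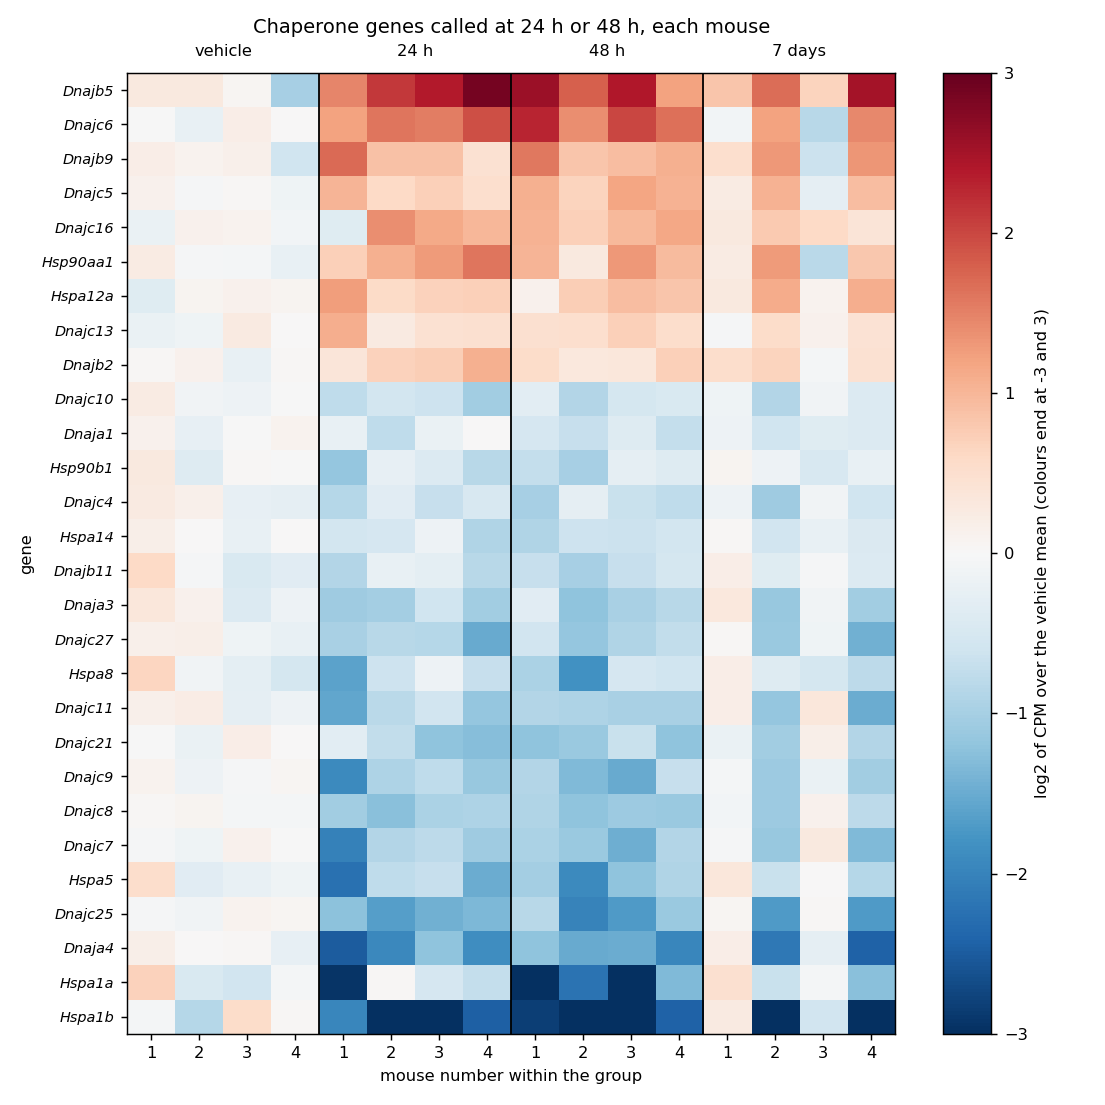
Log2 level of each chaperone gene called at 24 h or 48 h (rows) in each of the 16 mice (columns, by group and mouse number), relative to the vehicle mean of that gene. The genes were chosen by these calls against the same vehicle mice, so nothing is read from a likeness of the 24 h and 48 h columns. In the 7-day group mice 1 and 3 resemble the vehicle columns while mice 2 and 4 resemble the treated ones.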

How the data were processed

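RNA of sorted nuclei from 16 mice (4 per group) was measured in 32 libraries, 2 per mouse, made with SMART-seq2 and Nextera XT per the labels' protocols. The authors deposited raw counts for each gene, made with featureCounts 2.0.0 on GRCm38 exons without a strand option, per the file headers, so reads of overlapping opposite-strand genes cannot be told apart and reads of near-identical copies are uncertain. Trim Galore 0.6.5, Bowtie2 2.4.1 and DESeq2 1.30.0 are named in the submitters' processing notes without a role. Symbols were matched for 55141 of 55401 gene IDs (99.53%). For mouse 1 of the 24 h group and mouse 2 of both later groups the headers carry mouse number 6; the labels' numbers were used. The H3K27ac samples were not analysed here.

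Counts were added up over both libraries of each mouse, and the mouse is the replicate. The libraries of a mouse differed by more than sampling noise (chi-square per degree of freedom 1.40 to 2.85). Libraries held 2763704 to 7436451 counts without molecular identifiers, so the floor of 3 counts covers counting error only. In R 4.3.3, edgeR 4.0.16 was run with filterByExpr (17941 genes), TMM factors and glmQLFit and glmQLFTest in 1 fit over all 16 mice, Benjamini-Hochberg adjustment over all genes tested and a threshold of 0.05; standard errors were derived from the F statistic. CPM values use the TMM-scaled totals. Exon lengths came from the files. On simulated counts for the 24 h comparison over 17941 genes, 156 of 200 genes changed 3-fold were recovered, with 7 false calls.

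The genes, lists and tests were chosen with earlier results of these data known, so the lists are no independent evidence. A fixed set of well-known members was always named. For 24 h and 48 h, up to 10 called members per direction were named with the largest change, provided that treated and vehicle mice did not overlap and the mean log2 CPM reached 2; for 7 days the 3 members with the smallest p, and from each list up to 3 genes with the smallest p at 24 h. Dnajc4, Dnajc10 and the members not tested (except Hspb1) were named outside this rule, after their values were seen. Alternatives were DESeq2 1.42.0, limma 3.58.1 voom, other scalings, filters and thresholds, each library alone, equal depth, a fit of only the groups compared, a block for the mouse number, the 18S and mitochondrial shares as covariates, and each mouse left out; members whose exons share no base with another gene were added after seeing the data.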

Additional observations from a re-analysis of the deposited data

Results flagged for a closer look

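Among 160 groups of 4 mice, formed by the named genes and the 4 treatment groups, 6 held a value far from the other 3, where chance at 1 in 20 would give 8. Dnaja3 was highest in 24 h mouse 3 at 61.1 CPM, with the next mouse at 45.5 CPM. Dnajb9 was lowest in vehicle mouse 4 at 4.77 CPM, with the next at 7.85 CPM. Dnajc21 was highest in 48 h mouse 3 at 38.2 CPM, with the next at 28.0 CPM. Hspa12a was lowest in vehicle mouse 1 at 53.5 CPM, with the next at 73.0 CPM. Hspa13, the ER-associated HSP70, was lowest in 24 h mouse 1 at 31.4 CPM, with the next at 62.1 CPM. Hspd1 was highest in vehicle mouse 1 at 73.1 CPM, with the next at 53.4 CPM.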

How the results depend on the processing

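Of the 62 tested chaperone genes, 22 were called at 24 h and 26 at 48 h. With the 18S pseudogene share as a covariate the counts were 0 and 0, with the mitochondrial share 11 and 0, at an adjusted p of 0.01 3 and 6, and over members whose exons share no base with another gene, chosen after seeing the data, 14 and 15. Leaving out 1 mouse gave 12 to 19 and 11 to 20. Under the other alternatives the counts stayed within 1.5 times, between 18 and 25 at 24 h and between 21 and 32 at 48 h. For 7 days against vehicle the count of 0 became 1 with DESeq2 and 1 without a filter, and 0 to 4 without 1 mouse. For 7 days against 24 h it became 4 with voom and 2 without a filter, and 0 to 1 without 1 mouse; for 48 h against 24 h it was 0 under each alternative run.

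For the other folding genes, 24 and 32 calls became 0 and 0 with the 18S share, 11 and 0 with the mitochondrial share and 5 and 11 at an adjusted p of 0.01, and ran from 10 to 26 and from 15 to 29 without 1 mouse. At 7 days they were 2 with DESeq2, 3 with voom, 3 without a filter and 0 to 5 without 1 mouse. Hspa12a at 48 h turned from 0.68 to -0.023 with the mitochondrial share, and Hsp90aa1 at 48 h from 0.94 to -0.24 with the 18S share. The immediate early gene Ier2 at 48 h turned from -1.89 to 0.011 with the 18S share, and the cause of these turns was not tested. The Ier2 call was lost in 7 of 8 fits without 1 mouse (up to 0.128). Of 9 tested immediate early genes 1 rose and 4 fell at 48 h (55.6%, beside 30.1% of all genes). At 24 h 1 rose and 0 fell (11.1%, beside 24.2%). Scaling by total counts moved the median of all genes by 0.10 at 24 h and 0.10 at 48 h on the log2 scale, and that of the called members by about as much.

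Mice of different groups with the same number are different animals, and the mean correlation of their deviations was -0.036 over 24 pairs, so the numbers do not pair them. With the number as a replicate block, 18 chaperone genes were called at 24 h and 21 at 48 h. With 4 mice per group and simulated recovery of 78% of 3-fold changes, smaller changes of the sparse members can be missed.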
